A study of Macaca mulatta with 30 samples.

Results

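The genes described here make, sense, move and store cholesterol. They are a list of 30 gene symbols, chosen by name and not by level, though with earlier results of these data known. The list holds 8 of the mevalonate branch and its isoprenoid products and 12 of the squalene and sterol steps. A further 4 are of sterol sensing and 6 of transport, efflux and storage. Of the 30 symbols, 22 were matched to an Ensembl rhesus identifier in both tissues. PMVK, FDFT1, CYP51A1, MSMO1, EBP, SC5D, INSIG1 and STARD4 were not matched and have no value here. All 22 matched genes passed the read minimum in lung, among 17644 genes tested of 30246 identifiers. In hippocampus 21 passed, among 17390 tested of 32386. The gene that did not was GGPS1, which had 7 reads over the 15 hippocampus libraries and 15244 over the 15 lung libraries under the same identifier. The 2 tables hold different sets of identifiers, 20572 of them shared, so levels were not compared between tissues.

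Cholesterol is built from acetyl-CoA. The mevalonate branch makes isoprenoid units, farnesyl units are joined to squalene, and squalene is oxidised, cyclised and trimmed to cholesterol. The transcription factor SREBP2, encoded by SREBF2, switches these genes on when sterol in the endoplasmic reticulum is low; SCAP escorts it to the Golgi and the INSIG proteins hold it back. Cholesterol taken up in lipoproteins leaves the lysosome through NPC2 and NPC1, is stored as ester by SOAT1 and is exported by ABCA1 and ABCG1. In fetal lung cholesterol is a lipid of surfactant, and in brain it is made locally, for the most part, because plasma lipoproteins do not cross the blood-brain barrier.

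RNA was sequenced from rhesus macaque fetuses whose mothers had been injected intramuscularly with saline or a corticosteroid. Lung came from 5 groups of 3 wild type fetuses, labelled with gestational days 124 to 130. The groups were saline control, the clinical drug after 4 h or 5 days, and Beta-Ac after 6 h or 5 days. The clinical drug was Celestone (betamethasone phosphate and acetate, 0.25 mg/kg), and Beta-Ac was betamethasone acetate (0.125 mg/kg). Hippocampus came from 3 groups of 5 fetuses, labelled with gestational days 130 to 136: control, the clinical drug after 5 days and Beta-Ac after 5 days. The control and 5-day lungs came from fetuses that also gave a hippocampus, yet the age labels differ. Fetus 16-115 is labelled with days 124 to 130 for lung and day 136 for hippocampus, so the labels do not show a difference in age between the tissues. Both tissues are whole tissue, so fewer cells of a type and less RNA per cell cannot be told apart. Hippocampus groups follow the library titles. The treatment and dose fields give the drugs the other way round (0.125 mg/kg Beta-Ac for the libraries titled as clinical drug). The titles were used because the lung descriptions of the same animals give the drugs that the hippocampus titles name. This holds only for animals with both tissues, since BAC235, BAC237, CEL238 and CEL245 have no lung library.

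Depth was 14.1 to 45 M reads (M, 1000000) per lung library and 18.3 to 29.3 M per hippocampus library. Levels are read counts per 1000000 library reads (CPM) after TMM normalization, and a change is a log2 difference of group means from edgeR. A gene was called when its fold change was at least 1.5, its p under 0.05 and its adjusted p under 0.1. Markers of alveolar type 2 cells were at 2520 to 5020 summed CPM in the lung libraries, and markers of neurons at 2520 to 4230 in the hippocampus libraries. Summed CPM of glucocorticoid target genes, 3 of 6 matched, was 106 to 219 in control lungs, 941 to 1320 at 4 h after the clinical drug, 574 to 909 at 6 h after Beta-Ac and 125 to 281 in the 5-day groups. Libraries that stood apart included lung 15-81 of the clinical 4 h group, with 45 M reads and the highest macrophage markers (113 summed CPM, against 36.5 to 79.4 in the other 14), and hippocampus CTL212, a control. Choroid plexus markers were at 1080 summed CPM in CTL212 and at 7.81 to 29.2 in the other 14 hippocampus libraries. Lung 17-254 of the Beta-Ac 6 h group had red cell markers, 4 of 5 matched, at 197 summed CPM, against 19.2 to 88 in the other 14. Hippocampus BAC235 of the Beta-Ac group differed most from its own group, with a chi-square per degree of freedom of 156 to 247 against its 4 partners, where CTL212 had 103 to 169 against the other controls.

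At 4 h after the clinical drug SOAT1 and NPC1 rose in lung, and no synthesis gene was called. SOAT1, the enzyme that esterifies cholesterol for storage, rose 2.29-fold, and NPC1, the lysosomal membrane protein that releases cholesterol, rose 1.63-fold. These 2 of 22 genes were called, both higher, a share close to that of all genes tested, of which 7.40% were called and 3.46% were called as higher. The call of NPC1 was lost without 15-81 and with the 2 compared groups fitted alone. At an unadjusted p under 0.05 there were 4 of 22 (2 without 15-85), against 18.7% of all genes. The median log2 change of the 22 was -0.04, beside 0.02 for all genes.

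SOAT1 stood at 82.3, 90.5 and 106 CPM in the clinical 4 h lungs and at 35.5, 38.8 and 47.1 in controls. Every treated lung was thus above every control. The log2 change was 1.2 ± 0.17 (SE, n = 3 against 3, edgeR adjusted p = 0.000632), and it stayed between 1.08 and 1.32 and called with each of the 6 animals left out. NPC1 was at 127, 83.1 and 71.0 CPM against 63.0, 51.4 and 58.8 in controls, also without overlap, with the highest value in 15-81. Its log2 change was 0.70 ± 0.18 (edgeR adjusted p = 0.0212). Without 15-81 it was 0.40 (edgeR adjusted p = 0.0754), which is below the fold threshold, so the call rested on that library. Macrophage markers, 5 of 7 matched and none at 0 in all lungs, were at 36.5 to 113 summed CPM in this group and 39 to 50.1 in controls. Their part in the rise of these genes was not tested. Without 15-81 SOAT1 was called at a log2 change of 1.26. SOAT1 was at 82.3 CPM in 15-81, 90.5 in 15-85 and 106 in 15-97, where the markers were at 113, 36.5 and 79.4 summed CPM.

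The other genes of transport had positive changes that were not called. NPC2, the soluble lysosomal partner of NPC1, was at 1310, 1260 and 881 CPM against 885, 802 and 855, a log2 change of 0.44 ± 0.15 (edgeR adjusted p = 0.083, under the fold threshold). The 881 of 15-97 lay within the controls. Without 15-81 the change was 0.32 (edgeR adjusted p = 0.213), and without either 15-81 or 15-85 the unadjusted p was no longer under 0.05. ABCA1, the exporter that loads apolipoproteins, was at 65.9 CPM in 15-81 but at 16.4 and 15.1 in the other treated lungs, against 9.10, 31.1 and 35.4 in controls. Its log2 change of 0.39 had a 95% interval of -0.88 to 1.65, and the 65.9 came from the library with the highest macrophage markers. Without 15-81 the fitted change turned to -0.70 (edgeR adjusted p = 0.357). ABCG1, its partner exporter, had a log2 difference of 0.17 ± 0.35.

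None of the 14 synthesis genes tested was called 4 h after the clinical drug. Of the 14 fitted changes 11 were below 0, beside 47.4% of all genes. The largest change was that of DHCR7, the last reductase of the pathway, at 3.84, 2.77 and 4.26 CPM against 6.25, 4.72 and 4.52. Its groups did not overlap, yet the log2 change of -0.50 ± 0.30 did not pass (edgeR adjusted p = 0.284), and these levels rest on as few as 37 reads in a library. ACAT2, the thiolase that starts the branch, had the only synthesis p under 0.05 (-0.35 ± 0.14, edgeR adjusted p = 0.118). SREBF2, SCAP and INSIG2 had log2 differences of -0.04, -0.06 and -0.17, and none passed.

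**Figure D1:**
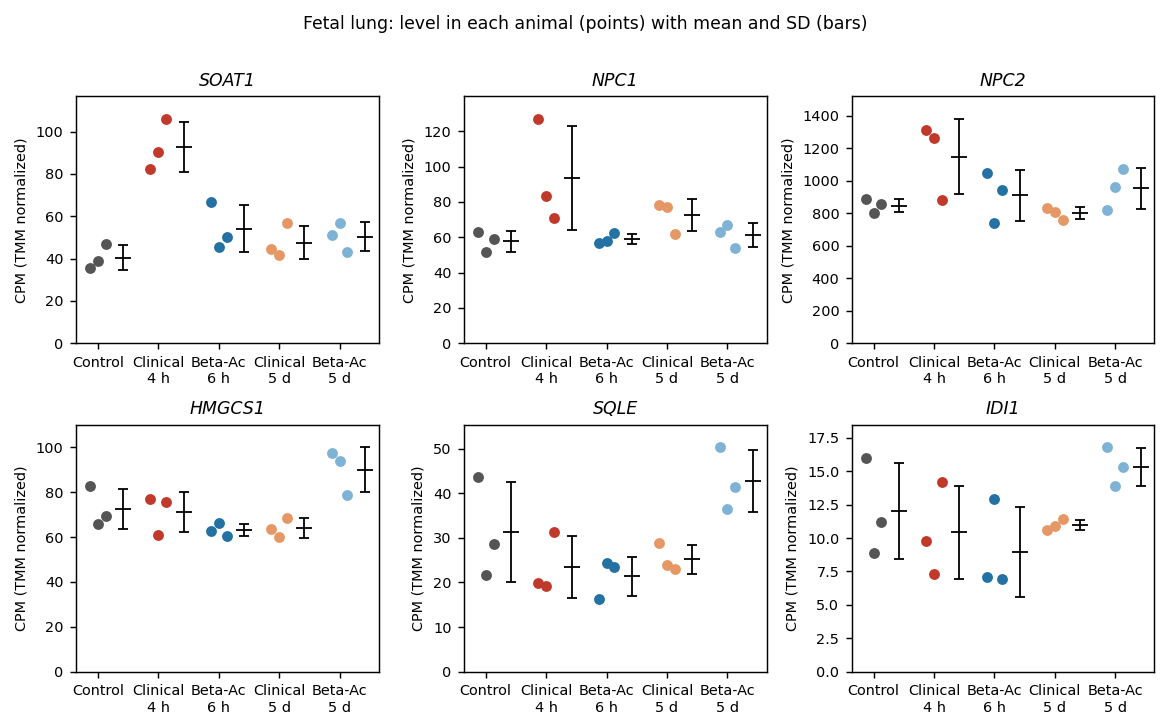
Levels in fetal lung of SOAT1, NPC1, NPC2, HMGCS1, SQLE and IDI1, in TMM-normalized CPM on the y axis, for the 5 groups on the x axis; each point is an animal (3 per group) and the bars are mean and SD. SOAT1 is above every other group at 4 h after the clinical drug, and HMGCS1 and SQLE are highest on average at 5 days after Beta-Ac.

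At 6 h after Beta-Ac no gene of the list was called in lung by edgeR or DESeq2 against the same controls, where edgeR called 0.442% of all genes. An unadjusted p under 0.05 was found for 7 of 22, against 11.5% of all genes. Of these 7, SOAT1 was higher and 6 were lower: INSIG2, GGPS1, LBR, FDPS, SQLE and ACAT2, where 4.93% of all genes had such a p and were lower. The count of 7 was 1 with the 2 compared groups fitted alone, and 3 without 15-92, 16-113, 16-123 or 17-254. LBR, a sterol reductase, had a log2 change of -0.39, which was -0.18 without 17-254, the lung with the highest red cell markers, and its unadjusted p was then no longer under 0.05.

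INSIG2, which retains SCAP and SREBP2 in the endoplasmic reticulum, was at 77.1, 60.3 and 51.9 CPM against 84.7, 81.1 and 97.4 in controls, with no overlap. The log2 change was -0.48 ± 0.13 (edgeR adjusted p = 0.152); the gene was called only without 16-123, the highest of the treated lungs. SQLE, the monooxygenase that oxidises squalene, was at 16.3, 24.4 and 23.4 CPM against 43.7, 21.7 and 28.6, and the groups overlapped (-0.55 ± 0.25, edgeR adjusted p = 0.325). ABCA1 had the largest change, 0.71, but its 95% interval was -0.56 to 1.98, with 69.7 CPM in 17-254 and 26.4 and 27.8 in the other treated lungs. Without 17-254 the change of ABCA1 was 0.10 (edgeR adjusted p = 0.939). SOAT1 was at 66.6, 45.5 and 50.2 CPM, a log2 change of 0.42 ± 0.17 over control (edgeR adjusted p = 0.295).

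The early groups were also set against each other. Dose and time differ between them (0.25 mg/kg at 4 h, 0.125 mg/kg at 6 h). The clinical animals carry numbers starting with 15 and the Beta-Ac animals 16 or 17. Drug, dose, time and number series thus cannot be told apart. SOAT1 was higher 4 h after the clinical drug by 0.78 ± 0.17 on the log2 scale (edgeR adjusted p = 0.0152), with every clinical lung above every Beta-Ac lung. NPC1 was higher by 0.67 ± 0.18 (edgeR adjusted p = 0.0306), and by 0.38 without 15-81 (edgeR adjusted p = 0.0617), below the fold threshold. HSD17B7, a 3-ketosteroid reductase of the sterol steps, was at 6.16, 4.34 and 4.13 CPM after the clinical drug and at 6.33, 6.79 and 9.69 after Beta-Ac. It was lower after the clinical drug by a log2 difference of -0.63 ± 0.24 (edgeR adjusted p = 0.0976), and that call was lost without 15-85, 15-97, 16-131 or 17-254, with -0.42 without 17-254. Without 15-81 the called genes were SOAT1 as higher and HSD17B7 and ABCA1 as lower. The difference of ABCA1, not called with all libraries, was -1.39 without 15-81 and 0.28 without 17-254.

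These 3 of 22 genes compare with 6.74% called among all genes, 2.62% as higher and 4.11% as lower. At an unadjusted p under 0.05 there were 7 of 22 (3 without 17-254, 4 without 15-97, 4 with the 2 groups fitted alone), and 20.7% of all genes. For the genes that were not called, the intervals leave room for differences: that of HMGCS1, the synthase that commits carbon to the branch, ran from -0.07 to 0.43.

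At 5 days after the clinical drug SOAT1 was at 44.3, 41.8 and 56.6 CPM, a log2 change of 0.23 ± 0.17 from control (edgeR adjusted p = 0.931). Between 4 h and 5 days after the clinical drug it differed by 0.96 ± 0.17 (edgeR adjusted p = 0.00197), and no 4 h lung overlapped a 5-day lung. The 4 h animals carry numbers starting with 15 and the 5-day animals 16, so time and number series cannot be told apart. It was the only gene of the 22 called in that comparison, where 10.4% of all genes were called and 4.47% were higher at 4 h. NPC2 was 0.52 ± 0.15 higher at 4 h (edgeR adjusted p = 0.0306, under the fold threshold), its 5-day lungs being at 830, 810 and 758 CPM. HSD17B7 was lower at 4 h by -0.45 ± 0.24, with 5-day values of 6.50, 5.49 and 8.14 CPM, and did not pass (edgeR adjusted p = 0.175). At an unadjusted p under 0.05 there were 5 of 22, against 22.9% of all genes; the count was 2 without 16-115 and 3 without 15-81, 15-85 or 16-126, with RLE normalization or with edgeR's own read filter. Without 15-81 HSD17B7 was called beside SOAT1, and without 15-97 NPC2 was.

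Against control, no gene of the list was called 5 days after the clinical drug, nor was any gene of the whole table (0%). For 2 of 22 the unadjusted p was under 0.05, against 4.39% of all genes, and DESeq2 called none of the 22. The 2 were LSS, the cyclase that makes lanosterol, at 42.3, 40.7 and 34.7 CPM against 36.5, 28.3 and 24.2 (0.41 ± 0.19, edgeR adjusted p = 0.931), and GGPS1, which makes geranylgeranyl groups, at -0.22 ± 0.10. The groups of LSS overlapped and those of GGPS1 did not. The count was 0 without 16-113, 16-115 or 16-120 and 1 without 15-92 or 15-101, without a read filter or with edgeR's own. DHCR7 was at 3.50, 4.72 and 3.61 CPM (-0.39 ± 0.30) and ABCG1 at 14.9, 13.8 and 20.8 against 7.49, 19.4 and 12 (0.35 ± 0.35), neither past the test.

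At 5 days after Beta-Ac 12 of the 14 synthesis genes had a positive change from control in lung, though no single gene was called by edgeR or DESeq2. The 14 genes had a mean pairwise correlation of 0.21 within groups, so their directions are not separate observations. Animals of both 5-day lung groups carry numbers starting with 16, while controls 15-92 and 15-101 do not. Against control 0 of 22 were called, beside 0.00567% of all genes, and 17 of 22 changes were positive, beside 51.6% of all genes. The median change was 0.17 on the log2 scale and 0.01 over all genes, and it was 0.09 without 16-128 and 0.29 without 16-130. LSS, MVD, HMGCS1 and TM7SF2 were higher at an unadjusted p under 0.05, which is 4 of 22 against 6.42% of all genes in either direction and 3.49% as higher. That count was 1 without 16-128 and 2 without 16-113. TM7SF2, a sterol reductase, was above every control, at 25.8 to 29.2 CPM against 16.6 to 24.1.

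LSS was at 59.8, 33.6 and 42.6 CPM 5 days after Beta-Ac, overlapping controls, with a log2 change of 0.61 ± 0.19 (edgeR adjusted p = 0.665). MVD, the decarboxylase that makes isopentenyl diphosphate, was at 50.1, 32.3 and 39.1 CPM against 34.1, 29.8 and 23.3 in controls, again with overlap (0.48 ± 0.18, edgeR adjusted p = 0.693). SQLE was at 50.3, 36.5 and 41.3 CPM, overlapping the control of 43.7 (0.44 ± 0.25). In each of the 3 genes 16-128 was the highest lung, and alveolar type 2 markers were at 4070 to 5020 summed CPM in this group, above the 2520 to 4040 of controls and the 3590 to 4030 of the clinical 5-day lungs but overlapping the 3330 to 4300 at 6 h after Beta-Ac. Endothelium markers, 4 of 5 matched, were at 1730 to 1760 summed CPM in this group, below the 2010 to 2260 of controls, the 1930 to 2080 at 5 days after the clinical drug and the 1950 to 2130 at 6 h after Beta-Ac. The part of both marker lists in the levels was not tested.

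The same 5-day Beta-Ac lungs were compared with the other treated groups, so these comparisons share libraries with the one above. Set against the clinical drug at the same 5 days, with 0.125 against 0.25 mg/kg, 16 of 22 genes were higher after Beta-Ac, beside 52.5% of all genes. All 7 of the mevalonate and isoprenoid genes were higher, by a median of 0.32 on the log2 scale. The median over the 22 genes was 0.19 and over all genes 0.01. None was called by edgeR or DESeq2, and edgeR called no gene of the table (0%). An unadjusted p under 0.05 was found for 3, all lower after the clinical drug, where 3.15% of all genes had such a p and 1.46% were lower. In 6 of 22 every clinical lung lay below every Beta-Ac lung, against 5.03% of all genes.

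HMGCS1 was at 97.7, 93.9 and 78.8 CPM 5 days after Beta-Ac and at 63.8, 60.0 and 68.6 at 5 days after the clinical drug. The Beta-Ac lungs were all above the clinical lungs, by 0.49 ± 0.12 on the log2 scale (edgeR adjusted p = 0.999). SQLE was at 28.9, 23.8 and 22.9 CPM after the clinical drug, again below every Beta-Ac lung, a difference of 0.76 ± 0.25 (edgeR adjusted p = 0.999), with a 95% interval of 0.22 to 1.3. FDPS, the farnesyl diphosphate synthase, differed by 0.32 ± 0.12, with a 95% interval of 0.06 to 0.57. DHCR7, at 7.19, 3.90 and 6.63 CPM after Beta-Ac, differed by 0.58 with an interval of -0.06 to 1.22. ABCG1, at 16.2, 9.57 and 8.44 CPM after Beta-Ac, went the other way (-0.54 ± 0.35) and did not pass. The count at an unadjusted p under 0.05 was 9 without 16-130 and 6 with the 2 groups fitted alone.

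Between 6 h and 5 days after Beta-Ac most genes again were higher at 5 days after Beta-Ac. Of 22 genes 18 were higher at that time, beside 48.4% of all genes, with a median of 0.28 beside -0.01. None was called by edgeR, where 0.261% of all genes were. An unadjusted p under 0.05 was found for 9, all higher at 5 days: HMGCS1, FDPS, IDI1, MVD, ACAT2, SQLE, NSDHL, TM7SF2 and INSIG2. Among all genes 7.91% had such a p, and 3.51% did and were lower at 6 h. The count was 4 without 16-128 and between 6 and 9 without any other animal.

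SQLE was at 16.3, 24.4 and 23.4 CPM at 6 h and 2.0-fold higher at 5 days, a log2 difference of 1.00 ± 0.25 that missed the adjusted threshold (edgeR adjusted p = 0.192); DESeq2 called it. IDI1, the isomerase of isopentenyl diphosphate, was at 7.08, 12.9 and 6.90 CPM at 6 h and at 16.8, 13.9 and 15.3 at 5 days. Its lungs did not overlap, and the difference was 0.77 ± 0.28 (edgeR adjusted p = 0.416). HMGCS1 was at 62.6, 66.1 and 60.6 CPM at 6 h, below all 5-day lungs by 0.51 ± 0.12 (edgeR adjusted p = 0.122). ABCA1 went the other way, 0.54 higher at 6 h with a 95% interval that spanned 0. In 5 of 22 genes every 6 h lung lay below every 5-day lung, against 5.97% of all genes. Animals of the 5-day group carry numbers starting with 16, and 1 of the 3 animals at 6 h a number starting with 17.

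**Figure D2:**
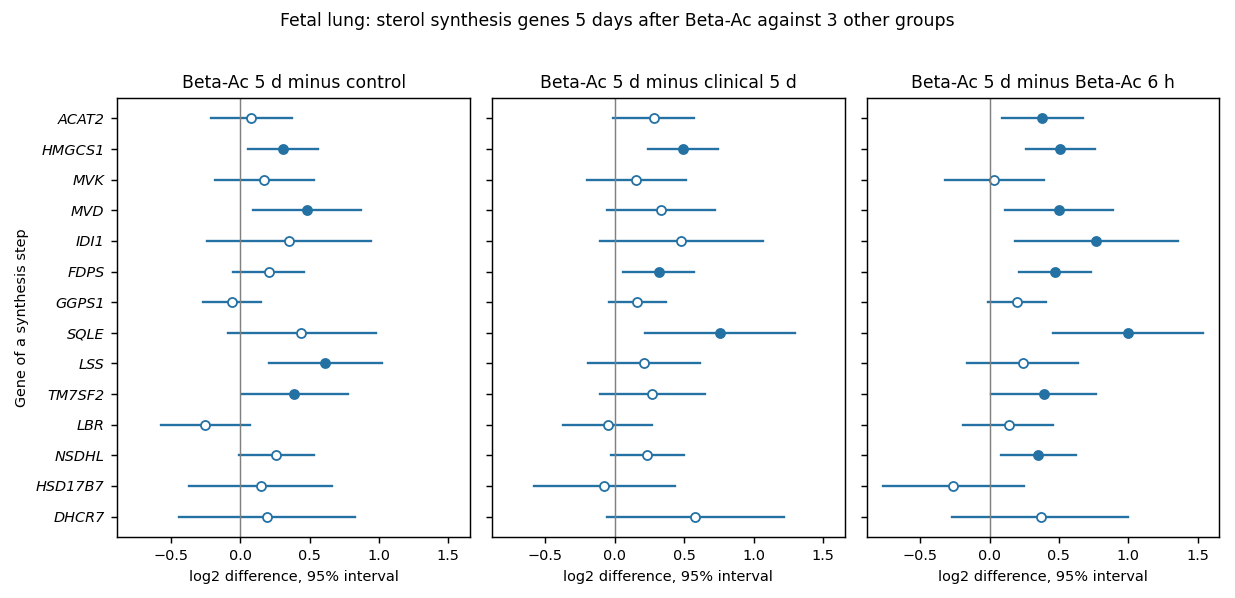
Log2 differences of the 14 synthesis genes tested in lung between 5 days after Beta-Ac and control, 5 days after the clinical drug or 6 h after Beta-Ac, with 95% intervals on the x axis and genes on the y axis; filled points have an unadjusted p under 0.05. Most points lie to the right of 0 in all 3 comparisons, and none of these genes passed the adjusted threshold.

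In hippocampus, 5 days after the clinical drug, ABCG1 and NPC2 were called, both lower, with levels 2.11-fold and 2.12-fold higher in controls. These are 2 of 21 genes, a share close to that of all genes, of which 7.86% were called and 5.35% as lower. Of the 5 controls, 3 came from sequencing runs that hold no treated animal. With the run in the fit, only the controls CTL113 and CTL212 share a run with treated animals and bear on the comparison. Without CTL212 that fit rests on a single control, so it cannot show whether the calls hold. Each run holds animals of a single number series (15, 16 or 17), so effects of run and of number series cannot be told apart. An unadjusted p under 0.05 was found for 10 of 21, against 30.6% of all genes, and 8 of the 10 were lower, against 17.6%. That count was 7 with the run as a block and 5 in the runs with treated animals. The median log2 change was -0.15, beside -0.02 for all genes, and it was -0.03 with the run as a block and 0.00 in the runs with treated animals, or -0.23 and -0.20 in the same fits without CTL212. Grouped by the treatment field instead of the titles, the same values make ABCG1 and NPC2 called as lower after Beta-Ac and no gene called after the clinical drug.

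ABCG1, which exports cholesterol to lipoprotein particles, was at 5.65, 5.92, 4.21, 7.13 and 5.73 CPM after the clinical drug and at 12.7, 11.6, 8.06, 11.7 and 16.5 in controls. Every treated hippocampus was below every control. The log2 change was -1.08 ± 0.20 (n = 5 against 5, edgeR adjusted p = 0.0138), between -0.94 and -1.19 with each of the 10 animals left out and called in all 10 fits. Within the sequencing runs that hold treated animals it was -1.07, but with the fewer libraries the adjusted p was 0.103 by edgeR. In run 1630 its control was at 8.06 and the clinical animals at 4.21 to 5.92; in run 0164 the control, CTL212, was at 16.5 and the clinical animals at 5.73 and 7.13.

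NPC2 was at 4.72, 3.50, 5.22, 4.24 and 5.01 CPM after the clinical drug and at 8.11, 5.72, 7.14, 7.34 and 19.9 in controls, with no overlap. Its highest control, 19.9, was CTL212, the library with choroid plexus markers. The log2 change of -1.09 ± 0.29 (edgeR adjusted p = 0.0287) became -0.64 without CTL212 and was still called (edgeR adjusted p = 0.036). These levels rest on few reads, 68 in the lowest library. With the run as a block the changes were -1.42 for NPC2 and -1.02 for ABCG1, both still called, and IDI1 (0.59) and SOAT1 (-0.69) were called as well. With the run as a block and CTL212 left out they were -0.75 for NPC2 and -0.60 for ABCG1. That fit sets the clinical animals against a single control, CTL113, so it cannot show whether the calls hold. In the runs with treated animals NPC2 was at -1.54, and at -0.66 without CTL212. This again leaves a single control, assumed to vary like the other groups. Without CTL212 and with no run in the fit, MVD was called as well.

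Of the genes that were not called, IDI1 and INSIG2 were higher and 6 were lower at an unadjusted p under 0.05. IDI1 was at 72.7, 68.7, 84.2, 76.6 and 63.4 CPM against 40.4, 60.4, 57.5, 52.9 and 39.3 in controls, with no overlap. Its log2 change was 0.55 ± 0.14 (edgeR adjusted p = 0.0267), under the fold threshold, and it was called with the run as a block, or with CTL101, CTL113 or CEL245 left out. INSIG2 had a log2 difference of 0.39 ± 0.12 (edgeR adjusted p = 0.0491, under the fold threshold), and by run it was at 44.6 in the control and 46.0 to 50.7 in the clinical animals of run 1630, and at 29.9 against 40.7 and 50.6 in run 0164.

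The 6 lower genes were MVD, SCAP, SOAT1, HMGCS1, TM7SF2 and NPC1, with log2 changes from -0.54 to -0.28 and edgeR adjusted p-values from 0.0292 to 0.0818, all under the fold threshold. SCAP, the escort of SREBP2, was at 127 to 162 CPM in the 5 clinical animals and at 172 to 207 in the 5 controls, without overlap (-0.42 ± 0.11). MVD was at 16.0 to 22.4 CPM against 24.4 to 36.5 (-0.54 ± 0.17). HMGCS1 was lowest among controls in CTL212, at 365 CPM, against 536 to 584 in the others. In 6 of 21 genes the clinical and control libraries did not overlap, in either direction, against 15.1% of all genes. Microglia markers, 2 of 5 matched, were at 71 to 131 summed CPM after the clinical drug and 46.2 to 112 in controls, oligodendrocyte markers, 5 of 7 matched, at 218 to 333 against 165 to 294, and astrocyte markers, 5 of 5 matched, at 2960 to 4430 against 2090 to 3170. Their part in these changes was not tested.

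**Figure D3:**
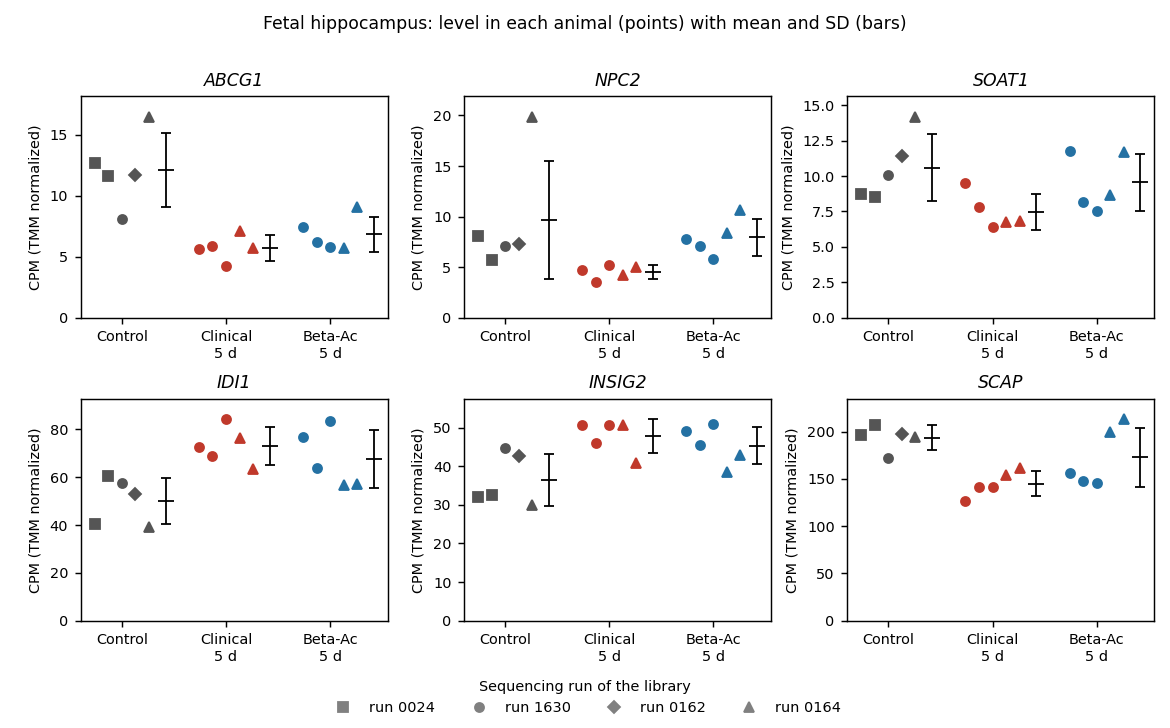
Levels in fetal hippocampus of ABCG1, NPC2, SOAT1, IDI1, INSIG2 and SCAP, in TMM-normalized CPM on the y axis, for the 3 groups on the x axis; each point is an animal (5 per group), its shape gives the sequencing run, and the bars are mean and SD. ABCG1, NPC2 and SCAP are below, and IDI1 above, every control in all 5 clinical animals, and the control of NPC2 at 19.9 is CTL212.

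At 5 days after Beta-Ac no gene of the list was called by edgeR in hippocampus against the same controls, nor was any gene of the table (0%). Before adjustment p was under 0.05 for 3 of 21, against 12.3% of all genes. This count was 6 with the run as a block and 5 in the runs with treated animals. Without CTL212 either fit leaves a single control to compare with, so its count is not given. ABCG1 was at 7.48, 6.18, 5.79, 5.76 and 9.06 CPM, overlapping the lowest control, with a log2 change of -0.82 ± 0.20 (edgeR adjusted p = 0.213); DESeq2 called it, and so did edgeR without BAC128. IDI1 was at 76.9, 63.7, 83.5, 56.7 and 57.3 CPM (0.43 ± 0.14, edgeR adjusted p = 0.273), overlapping the controls. INSIG2 had a log2 difference of 0.32 ± 0.12 (edgeR adjusted p = 0.326).

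LBR, a sterol reductase that also anchors the nuclear lamina, had the third largest change in this comparison (0.35 ± 0.20) and split by sequencing run rather than by group. It was at 58.9, 55.7, 63.3, 38.3 and 39.1 CPM after Beta-Ac and at 36.9, 34.1, 51.3, 37.2 and 40.9 in controls. The 7 libraries of run 1630 were at 51.3 to 70.6 CPM, whatever their group, and the 8 libraries of the other runs at 34.1 to 40.9. Animals of run 1630 carry numbers starting with 16, and those of the other runs 15 or 17. Run and number series thus cannot be told apart for this split. Within run 1630 the control was at 51.3 and the Beta-Ac animals at 55.7 to 63.3.

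Between the drugs at 5 days none of 21 genes was called in hippocampus by edgeR or DESeq2, nor was any gene of the table by edgeR (0%). An unadjusted p under 0.05 was found for 8, against 13.5% of all genes, and all 8 were lower after the clinical drug, against 8.06%. The median log2 difference was -0.25, beside 0.00 for all genes, and 16 of 21 were negative, beside 50.4% of all genes. The 8 were TM7SF2, NPC2, DHCR7, NSDHL, MVD, SCAP, ACAT2 and LSS; the count was 4 without BAC235 or CEL120 and between 5 and 8 without any other animal.

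NPC2 was at 7.80, 7.13, 5.79, 8.39 and 10.7 CPM after Beta-Ac, above every clinical animal, a difference of -0.81 ± 0.29 (edgeR adjusted p = 0.265). TM7SF2, the sterol C14 reductase, was at 56.0, 75.2, 71.2, 75.6 and 64.3 CPM after the clinical drug and at 82.6, 77.4, 83.7, 90.8 and 120 after Beta-Ac, also without overlap (-0.41 ± 0.13, edgeR adjusted p = 0.245). LSS was at 33.6, 40.0, 43.5, 43.4 and 64.7 CPM against 71.9, 37.0, 46.5, 67.2 and 80.0, with overlap (-0.43 ± 0.20). ABCG1 did not pass the test between the drugs, with a difference of -0.26 and a 95% interval of -0.68 to 0.16. Drug and dose cannot be told apart here.

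**Figure D4:**
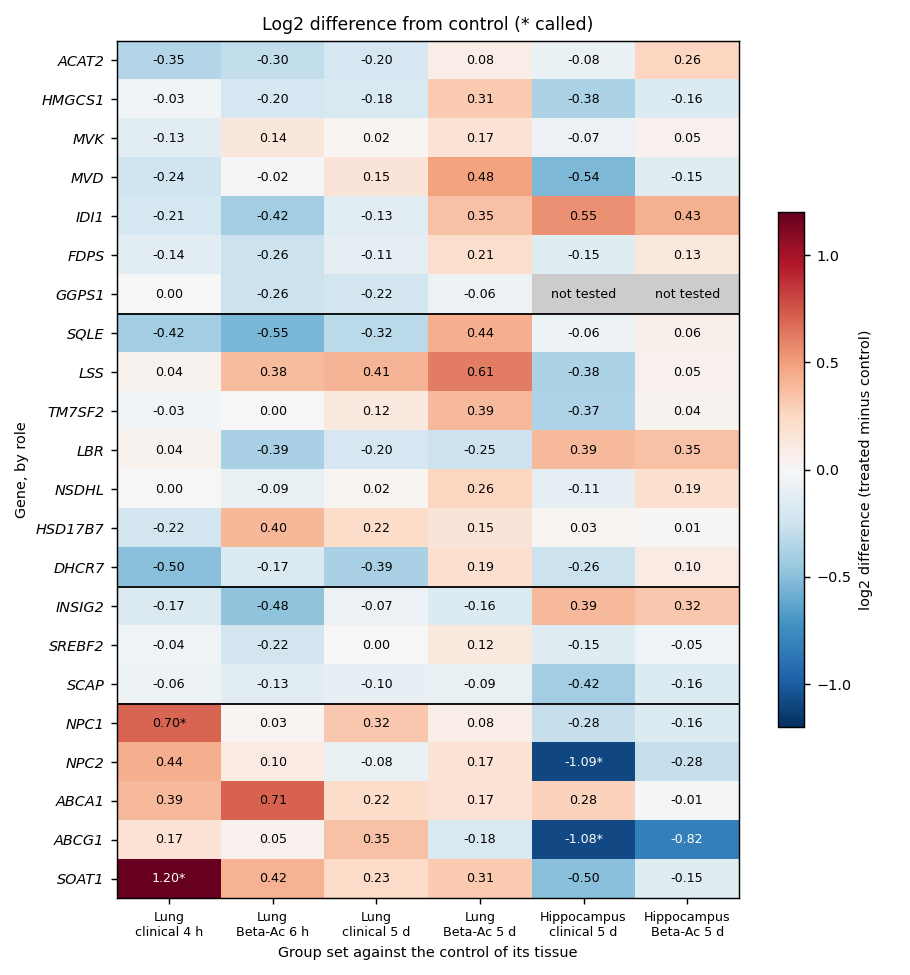
Log2 differences from the control of the same tissue for the 22 genes tested, by role from the mevalonate branch at the top to transport at the bottom (y axis), in the 4 lung and 2 hippocampus groups (x axis); red is higher, blue lower, and a star marks a called gene. The 4 called changes are SOAT1 and NPC1 in lung at 4 h and NPC2 and ABCG1 in hippocampus, all of them in the transport and storage block.

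Within groups, the mevalonate and isoprenoid genes had a higher mean correlation between animals than the list as a whole. After subtraction of the group means, the mean pairwise correlation across the 15 lung libraries was 0.39 over the 7 mevalonate and isoprenoid genes, 0.21 over the 14 synthesis genes, 0.07 over all 22 and 0.002 over all genes tested. In hippocampus the same means were 0.46 over 6 genes, 0.28 over 13, 0.11 over 21 and 0.002. Over the squalene and sterol genes alone the mean was 0.07 in lung and 0.11 in hippocampus, as over the whole list, and over the transport genes it was 0.13 and 0.43. Without CTL212 the hippocampus means were 0.24 over the transport genes and 0.32 over the mevalonate and isoprenoid genes, and without 15-92 the lung mean of the latter was 0.26. The closest pair in lung was FDPS with SQLE (r = 0.93). These are descriptions over 15 libraries of each tissue, which differ in depth and cell composition. The part of these differences in the correlations was not tested.

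Of 25 other genes of the sterol pathway, 19 were tested in lung and 18 in hippocampus. In lung 2 were called, both lower at 4 h than at 5 days after the clinical drug, where 10.4% of all genes were called. SREBF1, which encodes SREBP1, the regulator of fatty acid synthesis, was at 41.3 to 65.4 CPM at 4 h and 70.7 to 95.8 at 5 days, without overlap (-0.72 ± 0.21, edgeR adjusted p = 0.0271). LRP2, an endocytic receptor of the low-density lipoprotein receptor family, changed by -1.25 ± 0.50 at levels of 0.523 to 3.20 CPM (edgeR adjusted p = 0.0874), with overlap. In hippocampus 2 were called as lower after the clinical drug than in controls, where 7.86% of all genes were called and 5.35% as lower. With the run in the fit and CTL212 left out, a single control bears on this comparison, so that fit cannot show whether these calls hold. CYP46A1, which turns cholesterol into the hydroxysterol that leaves the brain, was at 25.1 to 35.7 CPM against 33.6 to 60.5 (-0.69 ± 0.18, edgeR adjusted p = 0.0265), and RNF139, a ubiquitin ligase of the endoplasmic reticulum, was at 4.50 to 6.28 against 6.20 to 10.5 (-0.77 ± 0.20, edgeR adjusted p = 0.0263). None of these genes was called in any other comparison.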

How the data were processed

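Values are whole-read counts per Ensembl rhesus gene as deposited, made by the authors with featureCounts and not normalized. For lung the submitters' processing notes name Bowtie 1.2.1.1 and featureCounts 1.5.1, while the study's methods name Bowtie 2 and the build MMUL1.0; for hippocampus the notes name Bowtie2, featureCounts and edgeR, after poly(A) selection. Sex, strand and gene lengths were not used, so levels were not compared between genes, and no genome or promoter sequence was used.

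A gene was kept where 3 or more lung libraries, or 5 or more in hippocampus, held 7 or more reads. Each tissue was fitted with edgeR 4.0.16 in R 4.3.3 (TMM, quasi-likelihood F-test, all groups in a single fit), and p-values were adjusted over all kept genes (lung, Storey; hippocampus, Benjamini-Hochberg). The scripts were tested on simulated counts. Replicates are separate fetuses. Every pair of libraries of a group differed by more than counting noise (chi-square per degree of freedom from 14 to 247), so none was counted as a duplicate. The errors given hold variation between animals as well as counting noise. They come from the edgeR fit, where all groups of a tissue share the estimate of spread. They are thus not the spread of the compared animals alone. Lung libraries are called by animal and hippocampus libraries by title. Replicate numbers follow accession order and pair nothing.

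Members, roles and marker lists were chosen with earlier results of these data known. Values per library are given for called members and for the 3 largest changes of a comparison with fewer than 3 called; other members' values, such as those of HMGCS1, FDPS, SCAP, INSIG2, NPC2, SOAT1 and TM7SF2 in further comparisons, were added after they were seen. Alternatives were RLE normalization, other read filters, DESeq2 1.42.0, the 2 compared groups only, the other adjustment, no fold threshold, each animal left out and, in hippocampus, the sequencing run as a block, the runs with treated animals only and the groups of the treatment field. Leaving out 15-81, 17-254, BAC235 or CTL212 as doubtful libraries, the last also with the run in the fit, and counts at an unadjusted p under each alternative, were added after the data were seen.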

Additional observations from a re-analysis of the deposited data

Results flagged for a closer look

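All 22 lung genes were tested between the early groups and between 4 h and 5 days after the clinical drug, and only the called ones are listed here. Of all genes, 6.74% were called in the first comparison and 10.4% in the second. SOAT1 was 0.78 higher on the log2 scale at 4 h after the clinical drug than at 6 h after Beta-Ac. NPC1 was 0.67 higher and HSD17B7 differed by -0.63. The NPC1 and HSD17B7 calls were lost when single animals were left out. SOAT1 was also 0.96 higher at 4 h than at 5 days after the clinical drug.

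Of 63 sets of 5 hippocampus values (21 genes in 3 groups), 5 held a sample far from the others, and chance gives about 1 in 20. Animal CTL212, with the choroid plexus markers, accounts for 3 of them, all among controls: NPC2 at 19.9 CPM with the next control at 8.11, HMGCS1 at 365 with the next at 536, and SREBF2 at 481 with the next at 632. The others were MVD at 36.5 CPM in control CTL101, with the next at 27.9, and HSD17B7 at 25.9 in Beta-Ac animal BAC235, with the next at 21.3.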

How the results depend on the processing

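No call changed direction under any alternative. In 7 of the 11 comparisons no gene was called, so a call count that stays at 0 there says little. With an animal left out, 24 of 78 counts at an unadjusted p under 0.05 moved by over 1.5 times. With the 2 compared groups fitted alone, 1 gene (SOAT1) was called at 4 h after the clinical drug against control and 1 (SOAT1) against Beta-Ac at 6 h. Of all 17644 genes, 844 and 285 were called in these fits. Without a fold threshold 5 were called between the early groups, 2 between 4 h and 5 days and 10 in hippocampus after the clinical drug. Over all genes the calls were then 2389 and 3306 of 17644 in lung, and 3816 of 17390 in hippocampus. DESeq2 called 1 gene (SQLE) between 6 h and 5 days after Beta-Ac, beside 177 of all genes. It called 1 (ABCG1) in hippocampus after Beta-Ac, beside 138 of all genes. In hippocampus after the clinical drug 4 genes (ABCG1, IDI1, NPC2 and SOAT1) were called with the run as a block, beside 958 of all 17390 genes. In the runs with treated animals 1 (NPC2) was called, beside 229 of all genes. With the run as a block and no CTL212 a single control bears on the comparison with control, so the calls of that fit are not counted here. With groups by the treatment field 0 were called, and 2 were called after Beta-Ac, beside 1366 of all genes. Between the drugs 1 (NPC2) was called with the run as a block and no CTL212, beside 110 of all genes. With single animals left out the counts were 1 to 2 at 4 h against control, 0 to 1 at 6 h against control, 2 to 3 between the early groups, 1 to 2 between 4 h and 5 days, 2 to 4 in hippocampus after the clinical drug (4 without CEL245) and 0 to 1 after Beta-Ac. HSD17B7 was not called between the early groups by DESeq2, without a read filter, with the 2 groups alone or with the other adjustment. Causes of lost calls were not tested. No paired analysis was possible because the replicate numbers follow accession order and the labels pair no animals across groups. Among the genes tested, DHCR7 and HSD17B7 in lung, and NPC2, ABCG1 and SOAT1 in hippocampus, rest on the fewest reads.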
